A study of Mus musculus with 8 samples.

Results

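The Notch pathway genes examined here were Notch1, Notch2, Notch3, Rbpj, Hey1, Heyl, Hes1, Jag1, Dll1 and Maml2, a set of 10 named for the part Notch signalling plays in keeping muscle stem cells (MuSCs) quiescent. Their R-loop peaks were all rows of the deposited peak table whose gene symbol was one of these names, which gave 41 of 28265 union peaks. Notch2 carried 12 peaks, Maml2 8, Notch3 and Rbpj 7 each, Notch1 4, and Dll1, Heyl and Hes1 1 each. Hey1 and Jag1 carried none. Of the 41 peaks, 38 passed the filter on low values and were tested.

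R-loops were mapped by DNA-RNA immunoprecipitation sequencing (DRIP-seq) with the S9.6 antibody, which binds RNA:DNA hybrids, in cultured and proliferating mouse MuSCs. Control cells (Ctrl) had the labelled genotype Pax7CreERT/Suv4-20h1WT and mutant cells (Kmt5b sKO) the genotype Pax7CreERT/Suv4-20h1KO. The S9.6 libraries numbered 3 for each genotype, and 1 input library of each had no values used here. The methods call the libraries of a genotype biological replicates. Both genotypes carried Pax7CreERT, a tamoxifen-inducible Cre recombinase driven from Pax7, so that floxed Kmt5b was deleted in Pax7-expressing cells of the mutant mice. According to the methods, tamoxifen was given to adult mice on a C57BL/6 background. Kmt5b, also called Suv4-20h1 or Suv420h1, encodes an enzyme that adds the second methyl group to lysine 20 of histone H4. The cells had left quiescence in culture, so the peaks describe the Notch genes in proliferating cells and not in quiescent ones.

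In Notch signalling, a ligand of the Delta or Jagged family on a cell binds a Notch receptor on its neighbour. The receptor is then cut, and its intracellular domain enters the nucleus, where it joins the DNA-binding protein RBPJ and a Mastermind-like coactivator to switch on genes of the Hes and Hey families. MuSCs need RBPJ to stay quiescent, and loss of Notch signalling sends them into differentiation. An R-loop forms when a transcript pairs with the template DNA strand and leaves the other strand unpaired, and guanine-rich transcripts favour it.

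The peaks that differed most between genotypes lay in introns, and the central 300 bases of the 3 of them with more than 2 times the Ctrl signal are shown for that reason. The fourth sequence is a contrast, the centre of the highest-scoring intronic Notch2 peak without a call or another annotated gene. All 4 are from the plus strand of GRCm38 (mm10), which is the coding strand of the 3 genes, and capitals mark runs of 3 or more guanines.

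Notch2 intron, chr3:98045051-98045350, peak called higher: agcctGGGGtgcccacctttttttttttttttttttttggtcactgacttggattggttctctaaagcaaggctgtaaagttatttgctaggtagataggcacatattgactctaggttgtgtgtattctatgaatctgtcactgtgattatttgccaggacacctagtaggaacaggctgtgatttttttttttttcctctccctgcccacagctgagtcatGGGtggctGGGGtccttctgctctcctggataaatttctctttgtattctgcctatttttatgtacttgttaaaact
Rbpj intron, chr5:53539751-53540050, peak called higher: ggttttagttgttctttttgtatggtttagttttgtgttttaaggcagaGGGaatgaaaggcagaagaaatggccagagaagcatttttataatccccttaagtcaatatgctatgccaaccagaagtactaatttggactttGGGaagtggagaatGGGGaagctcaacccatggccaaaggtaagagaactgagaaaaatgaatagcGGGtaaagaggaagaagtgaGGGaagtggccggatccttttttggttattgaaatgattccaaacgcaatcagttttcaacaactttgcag
Maml2 intron, chr9:13610651-13610950, peak called higher: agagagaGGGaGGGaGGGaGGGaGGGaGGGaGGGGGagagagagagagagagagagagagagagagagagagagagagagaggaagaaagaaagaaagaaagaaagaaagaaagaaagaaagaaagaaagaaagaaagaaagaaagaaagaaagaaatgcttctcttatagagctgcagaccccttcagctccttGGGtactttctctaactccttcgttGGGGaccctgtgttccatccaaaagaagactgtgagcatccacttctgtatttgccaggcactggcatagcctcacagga
Notch2 intron, chr3:98066151-98066450, peak not called: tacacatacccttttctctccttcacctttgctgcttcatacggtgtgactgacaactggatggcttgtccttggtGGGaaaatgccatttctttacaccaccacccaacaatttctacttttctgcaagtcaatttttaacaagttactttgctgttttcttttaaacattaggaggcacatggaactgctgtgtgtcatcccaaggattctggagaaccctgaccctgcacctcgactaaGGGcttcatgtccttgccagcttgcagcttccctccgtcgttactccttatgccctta

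These windows held 3 guanine runs in the Notch2 peak called higher, 5 in the Rbpj peak, 9 in the Maml2 peak and 2 in the contrast. The median was 3 guanine runs in windows of the same length at the centre of 20808 tested peaks that carried a gene. It was 5 in the 7 called Notch peaks and 4 in the 31 tested Notch peaks without a call. The contrast lay under the lower quartile of those without a call (2.5). The Maml2 window opened with a GA-rich simple repeat in which most of its runs lay, and the Notch2 window held long thymine tracts. Across whole peaks the median number of guanine runs per kb was 13.2 in the 7 called peaks, 13.7 in the 31 tested peaks without a call and 10.8 in all tested peaks that carried a gene. The called peaks had a median GC content of 43.8%, against 46.6% in those without a call and 43.0% in all tested peaks that carried a gene.

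The signal of a peak is a score, the S9.6 signal summed over the peak and scaled by the authors to Drosophila spike-in DNA. It has no strand, so a gene and a partner antisense to it cannot be told apart, and a higher score in more cells cannot be told apart from more R-loops per cell. Summed over all union peaks, the scores were 3909655 to 4729631 in Ctrl and 4699599 to 4930261 in Kmt5b sKO, and Ctrl replicate 2, with the highest Ctrl total, was the highest Ctrl library at 28 of the 41 Notch peaks. The single peak on Kmt5b itself scored 412, 658 and 420 in Ctrl and 440, 449 and 484 in Kmt5b sKO (limma adjusted p = 0.68), which is no check of the deletion because an R-loop score does not measure intact mRNA. Among marker genes, 5 of 8 MuSC genes carried peaks (Pax7, Myod1, Itga7, Sdc4 and Des), while none of the 4 fibro-adipogenic, 3 immune and 2 glial markers did. Of other cell types, Pecam1 (endothelial), Acta2 (smooth muscle) and Myog and Myh3 (differentiated muscle) carried peaks, and Cdh5, Kdr, Myh11, Rgs5, Ckm and Acta1 none. Of 21 tested marker peaks 3 were called higher (14.3%, against 32.9% of all tested peaks) and 0 lower (all tested peaks: 0.883%). The 3 were both peaks of Sdc4 and 1 of Pecam1. The MuSC marker Sdc4 summed to 109 to 166 in Ctrl and 286 to 329 in Kmt5b sKO (log2 fold change 1.13), and Pax7 to 2651 to 3046 and 2668 to 2769 (−0.06). The sums of Myod1 (0.27), Itga7 (0.30) and Des (0.13) were not called. The endothelial marker Pecam1 summed to 115 to 137 in Ctrl and 186 to 210 in Kmt5b sKO (0.62), and the smooth muscle marker Acta2 to 487 to 732 and 428 to 454 (−0.40, limma adjusted p = 0.014, without a call). The part of endothelial or other cells in the results below was not tested.

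To ask which R-loops on Notch pathway genes differed after loss of Kmt5b, the 3 libraries of each genotype were compared peak by peak in a limma fit over all 25815 tested autosomal peaks. Of the 38 tested Notch peaks, 7 were called higher in Kmt5b sKO (18.4%) and 0 lower, where a call needed an adjusted p (Benjamini-Hochberg) below 0.1 together with a fold above 1.5. Over all tested peaks 32.9% were called higher and 0.883% lower, and over those that carried a gene 22.9% were higher and 1.03% lower, so the share among Notch peaks was no larger than the background. The calls lay on Maml2 (4), Notch2 (1), Notch3 (1) and Rbpj (1), and on no ligand or target gene. At an unadjusted p under 0.05, 2 Notch peaks were lower, and with the variance of each peak taken alone 0 were called lower and 4 higher. With that variance 0.291% of all tested peaks were called lower and 21.1% higher.

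The median log2 fold change (Kmt5b sKO over Ctrl) was 0.15 over the 38 Notch peaks, with quartiles of −0.05 and 0.50, against 0.35 over all tested peaks, with quartiles of 0.05 and 0.76. It was positive in 26 Notch peaks (68.4%), against 78.7% of all tested peaks. The 3 libraries of each genotype did not overlap, with Kmt5b sKO above, at 9 Notch peaks (23.7%, against 41.5% of all tested peaks), and with Kmt5b sKO below at 2 (all tested peaks: 3.81%). Of the 7 called peaks, 5 were separated in this way.

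**Figure D1:**
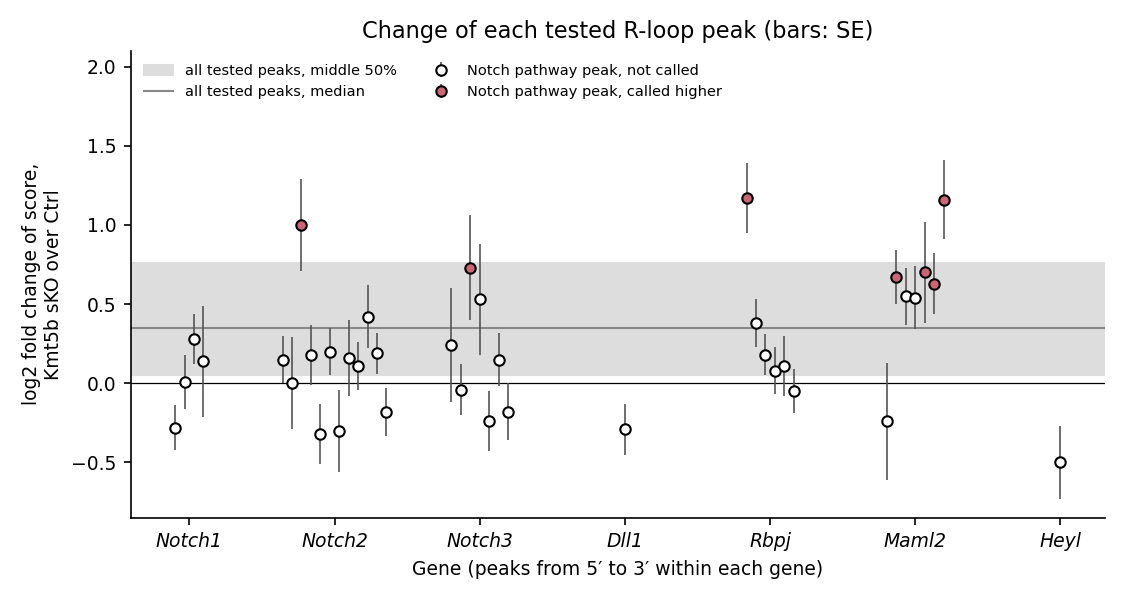
Log2 fold change of the score (Kmt5b sKO over Ctrl, y axis) of the 38 tested peaks on Notch pathway genes, from 5′ to 3′ within each gene (x axis), with bars for the standard error of the limma fit. Filled points are the 7 peaks called higher, and the grey band (0.05 to 0.76) and line (0.35) are the quartiles and median of all 25815 tested peaks. Most Notch peaks sat at or below the grey line, and Maml2 was the gene with 4 filled points.

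The receptors carried 23 peaks, all tested, of which 2 were called higher (8.7%, against 32.9% of all tested peaks). Notch1 (ENSMUSG00000026923, chr2:26457903-26516663, minus strand) encodes a receptor of MuSCs, and none of its 4 peaks was called. Their log2 fold changes ran from −0.28 to 0.28. Its highest-scoring peak, at chr2:26475600-26489999 over 13 exons, scored 406, 659 and 444 in the Ctrl libraries and 389, 399 and 423 in the Kmt5b sKO libraries. Ctrl replicate 2 stood above all others and the remaining 5 libraries lay together. On the log2 scale the change was −0.28 (SE 0.14, adjusted p = 0.11 by limma), and −0.07 without Ctrl replicate 2.

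Notch2 (ENSMUSG00000027878, chr3:98013527-98150361, plus strand), a receptor paralog also expressed by MuSCs, had 64.7% of its length inside its 12 peaks. A short intronic peak, chr3:98044600-98045799, centred 31.7 kb downstream of the annotated transcription start site (TSS), was called higher. Its score was 32, 31 and 33 in Ctrl and 62, 48 and 93 in Kmt5b sKO. All mutant libraries lay above all Ctrl libraries, which were nearly equal. This was a log2 fold change of 1.0 (SE 0.29, adjusted p = 0.0031 by limma), or a fold of 2.01 on the scale of score + 1, and 44.6% of the bases were repeat-masked. The other 11 peaks had log2 fold changes from −0.32 to 0.42, among them the longest Notch peak, 29.2 kb over 16 exons, at 0.19. The peak at chr3:98090000-98093199, with 87, 98 and 91 in Ctrl and 113, 100 and 166 in Kmt5b sKO, was separated too but fell short of the fold threshold (log2 fold change 0.42, limma adjusted p = 0.076).

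Notch3 (ENSMUSG00000038146, chr17:32120820-32166852, minus strand) encodes a receptor found in quiescent MuSCs. Of its 7 peaks 1 was called higher, chr17:32150000-32151399, which overlapped 3 exons. It scored 22, 29 and 40 in Ctrl and 45, 92 and 29 in Kmt5b sKO. The groups overlapped, since Kmt5b sKO replicate 3 lay inside the Ctrl range and replicate 2 alone reached a score above 45. The fitted log2 fold change of 0.73 had an SE of 0.33 and an adjusted p of 0.071 by limma. The call was lost without Kmt5b sKO replicate 2 (log2 fold change 0.29, limma adjusted p = 0.62), without Ctrl replicate 1 (0.52, adjusted p = 0.28) and without the variance trend (adjusted p = 0.15). The last 3 Notch3 peaks overlapped Gm17276, a gene annotated on the opposite strand, and had log2 fold changes from −0.24 to 0.15.

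Of the 2 ligands, Dll1 (ENSMUSG00000014773, chr17:15367354-15376872, minus strand), a Delta-family ligand, had a single peak at chr17:15367600-15375199. This peak covered 79.8% of the gene, 11 exons among them. Its score was 287, 330 and 299 in Ctrl and 261, 244 and 244 in Kmt5b sKO. Every mutant library lay below every Ctrl library, in contrast to the called peaks, but the gap was small. With a log2 fold change of −0.29 (SE 0.16, adjusted p = 0.13 by limma), the peak was not called. It also overlapped A930024N18Rik, a long noncoding RNA gene on the opposite strand. Jag1 (ENSMUSG00000027276, chr2:137081456-137116644, minus strand), a Jagged-family ligand, had no peak. The nearest one lay 7.66 kb away, was assigned to Slx4ip, and scored 178, 248 and 207 in Ctrl and 238, 209 and 231 in Kmt5b sKO.

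The nuclear complex had 5 of 13 tested peaks called higher (38.5%, against 32.9% of all tested peaks), 4 of them on Maml2. Rbpj (ENSMUSG00000039191, chr5:53466152-53657362, plus strand) encodes the DNA-binding protein through which the Notch intracellular domain acts. Its first peak, chr5:53538400-53541399, was called higher. The score was 50, 53 and 57 in Ctrl and 117, 135 and 112 in Kmt5b sKO. Every mutant library lay far above every Ctrl library, and the spread inside each genotype was smaller than the gap between them. The fit gave a log2 fold change of 1.17 (SE 0.22, adjusted p = 2.8e-06 by limma), a fold of 2.25, the largest of any Notch peak. The peak overlapped no exon and lay 73.7 kb downstream of the TSS that the table used, but 15934 bp before the nearest start of a protein-coding Rbpj transcript.

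The other 5 tested Rbpj peaks, downstream of that start, had log2 fold changes from −0.05 to 0.38, and none was called. The peak at chr5:53591600-53601199 scored 295, 466 and 337 in Ctrl and 491, 477 and 433 in Kmt5b sKO. These groups overlapped through Ctrl replicate 2, and the log2 fold change of 0.38 (limma adjusted p = 0.03) was short of the fold threshold. A short peak of 0.4 kb where several protein-coding Rbpj transcripts start, chr5:53590600-53590999, had a GC content of 78.5% and 60.0 guanine runs per kb. It scored only 9, 28 and 11 in Ctrl and 21, 30 and 17 in Kmt5b sKO and was not tested.

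Maml2 (ENSMUSG00000031925, chr9:13297957-13709388, plus strand), a Mastermind-like coactivator, is the longest of the 10 genes at 411 kb. It was the only one of the 7 tested genes whose summed score was called higher, against 25.6% of 7299 genes tested in the same way, and 0 were called lower (all genes: 0.274%). The 8 Maml2 peaks summed to 556, 610 and 497 in Ctrl and to 725, 1004 and 834 in Kmt5b sKO. All mutant libraries lay above all Ctrl libraries. For the sum, the log2 fold change was 0.62 (SE 0.13, adjusted p = 5.1e-05 by limma), a fold of 1.53, close to the threshold of 1.5. Without Ctrl replicate 3 or without Kmt5b sKO replicate 2 the gene was no longer called.

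Of the 7 tested Maml2 peaks 4 were called higher, and all 8 lay in introns without an exon. The largest change was at chr9:13609800-13611799, 312.8 kb downstream of the TSS, where the score was 32, 52 and 35 in Ctrl and 76, 86 and 104 in Kmt5b sKO. The groups were well apart, and the log2 fold change was 1.16 with an SE of 0.25 (adjusted p = 6.2e-05 by limma). Repeats masked 53.7% of this peak, the one with the GA-rich repeat shown above.

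Near the start of the gene, 13.8 kb downstream of the TSS, the peak at chr9:13309600-13313999 scored 118, 150 and 135 in Ctrl and 188, 239 and 215 in Kmt5b sKO. Its libraries did not overlap either, and the log2 fold change was 0.67 (SE 0.17, adjusted p = 0.00085 by limma). Without Ctrl replicate 1 the value was 0.58, short of the fold threshold. A pair of neighbouring peaks was called in the middle of the gene. The longer, chr9:13475200-13478799, scored 90, 116 and 100 in Ctrl and 131, 209 and 144 in Kmt5b sKO (log2 fold change 0.63, SE 0.19, adjusted p = 0.0035 by limma). It was separated, with replicate 2 well above the other mutant libraries, and without that library the value was 0.43 (limma adjusted p = 0.11). Without Ctrl replicate 1 it was 0.55, again short of the fold threshold.

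The shorter, chr9:13473400-13474399, scored 43, 28 and 25 in Ctrl and 39, 50 and 68 in Kmt5b sKO. Here Ctrl replicate 1 lay above Kmt5b sKO replicate 1, so the groups overlapped. Its log2 fold change was 0.70 (SE 0.32, adjusted p = 0.074 by limma), and the call was lost when any of 4 libraries was left out (Ctrl replicates 2 and 3, Kmt5b sKO replicates 2 and 3), with log2 fold changes from 0.49 to 0.71. The uncalled peaks at chr9:13314400-13319199 and chr9:13432000-13434799 were separated as well, with log2 fold changes of 0.55 and 0.54, just under the threshold, and the first Maml2 peak was at −0.24. The untested peak at chr9:13674800-13675599 scored 28, 17 and 12 in Ctrl and 25, 17 and 34 in Kmt5b sKO.

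**Figure D2:**
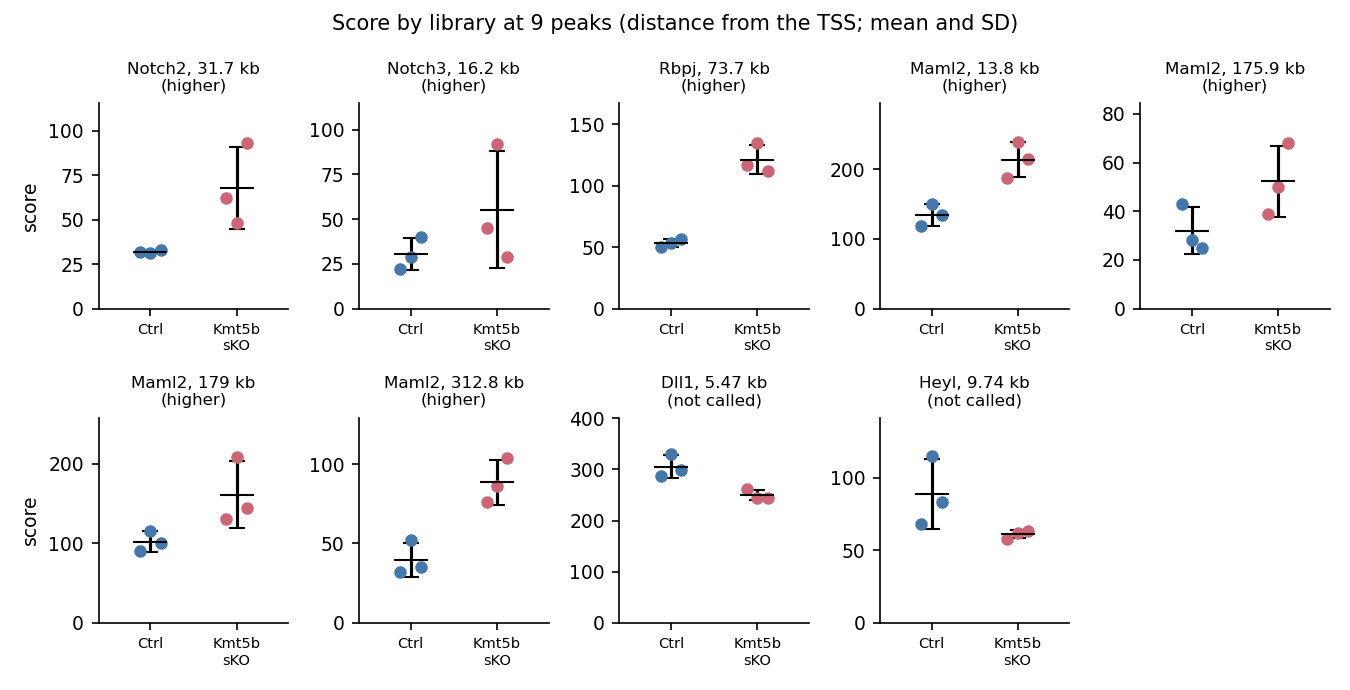
Score (y axis, linear from 0, a scale for each panel) of each Ctrl and Kmt5b sKO library at the 7 peaks called higher and at the Dll1 and Heyl peaks, named by gene and distance from the TSS. Points are libraries, and bars the mean and SD of 3. The Notch2, Rbpj and 3 of the 4 Maml2 panels show separate groups, Notch3 at 16.2 kb and Maml2 at 175.9 kb overlap, and Dll1 and Heyl have their Ctrl libraries above.

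The target genes carried 2 peaks on 3 genes, and neither was called. Heyl (ENSMUSG00000032744, chr4:123233556-123249875, plus strand), a Hey-family transcriptional repressor, had a peak at chr4:123241600-123244999. It scored 68, 115 and 83 in Ctrl and 58, 62 and 63 in Kmt5b sKO. All mutant libraries lay below all Ctrl libraries, and the Ctrl libraries were the more spread. A log2 fold change of −0.50 (SE 0.23) gave an adjusted p of 0.066 by limma, past the p threshold and short of the fold threshold. The value was −0.30 without Ctrl replicate 2 (limma adjusted p = 0.36) and −0.67 without Ctrl replicate 1, where the peak was called lower (limma adjusted p = 0.038). Hes1 (ENSMUSG00000022528, chr16:30064384-30067796, plus strand), the repressor gene most often read as a Notch output, had a peak of 0.6 kb at chr16:30066200-30066799. Its scores of 28, 17 and 26 in Ctrl and 27, 24 and 41 in Kmt5b sKO overlapped, and their mean was under the level filter. Hey1 (ENSMUSG00000040289, chr3:8663359-8667256, minus strand) had no peak within 65.0 kb.

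Per kb of peak, the mean Ctrl signal of the 8 genes lay between 26.1 and 41.4. In descending order it was 41.4 ± 7.06 on Rbpj, 40.2 ± 2.92 on Dll1, 39.4 ± 9.77 on Hes1, 34.9 ± 4.80 on Notch3, 31.5 ± 6.32 on Notch1, 31.3 ± 3.32 on Notch2, 26.7 ± 2.72 on Maml2 and 26.1 ± 7.06 on Heyl (SD, n = 3). Each gene differed from the next in this order by less than the sum of their SDs, so the order of neighbours is not resolved. In Kmt5b sKO the order was Hes1 at 51.1 ± 15.1, Rbpj at 46.6 ± 1.15, Maml2 at 41.1 ± 6.76, Notch3 at 35.8 ± 4.59, Notch2 at 34.2 ± 2.0, Dll1 at 32.9 ± 1.29, Notch1 at 30 ± 0.794 and Heyl at 17.9 ± 0.778 (SD, n = 3). There Notch1 lay below Dll1, and Heyl below Notch1, by more than the sum of their SDs, and the other neighbouring pairs did not differ by that much. The summed log2 fold change was −0.05 on Notch1, 0.13 on Notch2, 0.04 on Notch3 and 0.19 on Rbpj, with limma adjusted p from 0.22 to 0.84. None of these 4 sums was called, and after centring each library on its median they were −0.37, −0.19, −0.28 and −0.13.

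**Figure D3:**
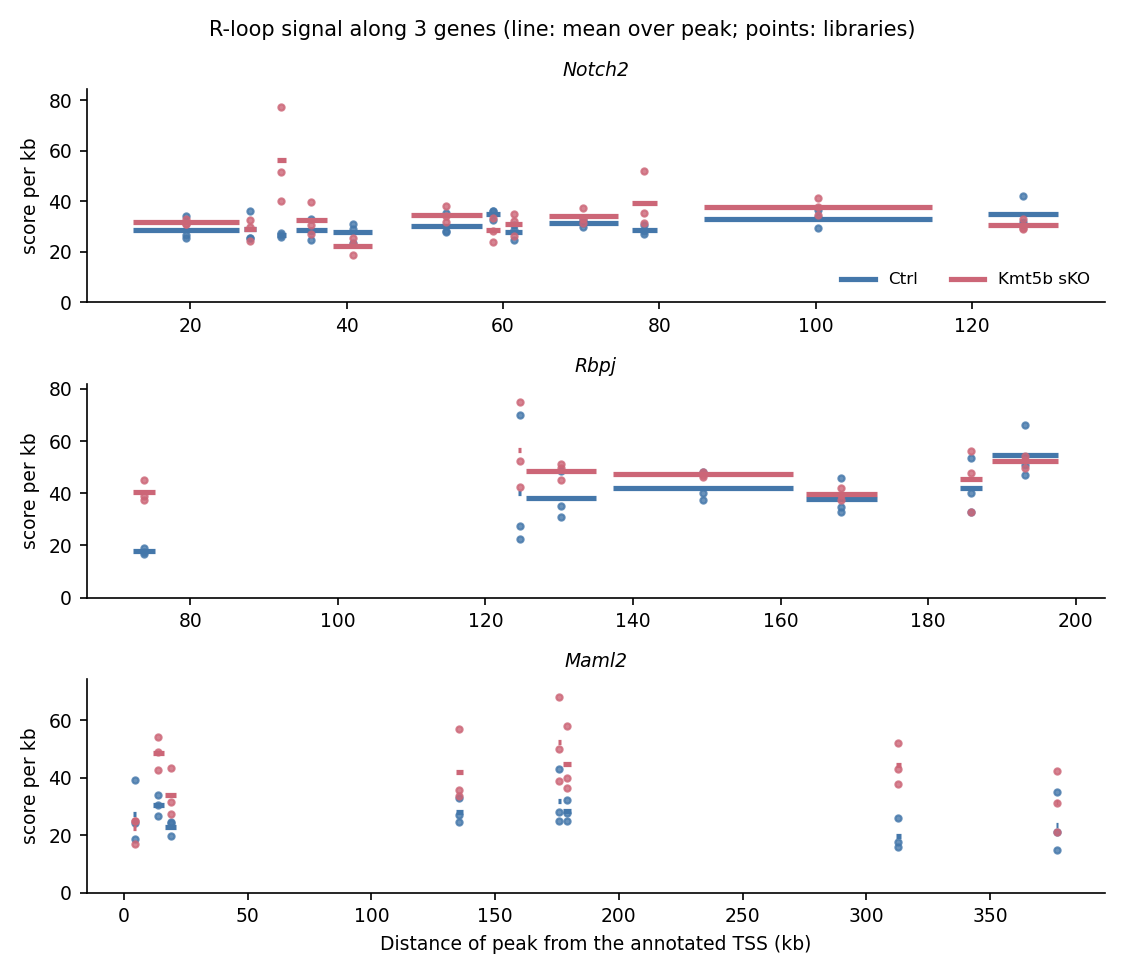
Score per kb (y axis, linear from 0) of each peak on Notch2, Rbpj and Maml2 against the distance of the peak from the annotated TSS in kb (x axis). Horizontal lines span each peak at the mean of 3 libraries, in blue for Ctrl and red for Kmt5b sKO, and points are single libraries. The widest gaps between the lines of Notch2 and Rbpj are at 31.7 kb and 73.7 kb. The red line is above the blue at 8 of 12 Notch2, 6 of 7 Rbpj and 7 of 8 Maml2 peaks, where 78.7% of all tested peaks had a positive change.

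To compare a peak with the rest of its own gene, its score was taken as a share of the summed score of the gene, a value that the scaling of the libraries does not change. This comparison was chosen after the calls were known, and with 3 libraries against 3 the smallest p of the exact permutation test is 0.1. Only peaks called higher in these same libraries were compared, which favoured a larger share in Kmt5b sKO. The shares are thus a description and no separate test of the calls. The Rbpj peak held 2.31%, 1.82% and 2.54% of the gene's signal in Ctrl and 4.14%, 5.0% and 4.11% in Kmt5b sKO. The libraries did not overlap (exact permutation p = 0.1, two-sided). The mean score of this peak was 2.27 times the Ctrl mean, and that of the rest of the gene 1.10 times. The Notch2 peak held 1.18%, 1.0% and 1.31% in Ctrl and 2.19%, 1.52% and 3.0% in Kmt5b sKO (exact permutation p = 0.1), with ratios of 2.11 in the peak and 1.08 in the rest of the gene.

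On Maml2 the peak at 312.8 kb likewise held a larger share in each mutant library, 10.48%, 8.57% and 12.47%, than in Ctrl, 5.76%, 8.52% and 7.04% (exact permutation p = 0.1), though its lowest mutant share and highest Ctrl share differed by little. The remaining Maml2 peaks that were called kept overlapping shares (exact permutation p from 0.6 to 0.9), since the rest of the gene had 1.52 to 1.54 times the Ctrl signal as well. The Notch3 peak overlapped too (exact permutation p = 0.2). Mean signal was higher in Kmt5b sKO at 7 of the 8 Maml2 peaks, 6 of the 7 Rbpj peaks and 8 of the 12 Notch2 peaks. Of all tested peaks 78.7% had a positive log2 fold change.

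**Figure D4:**
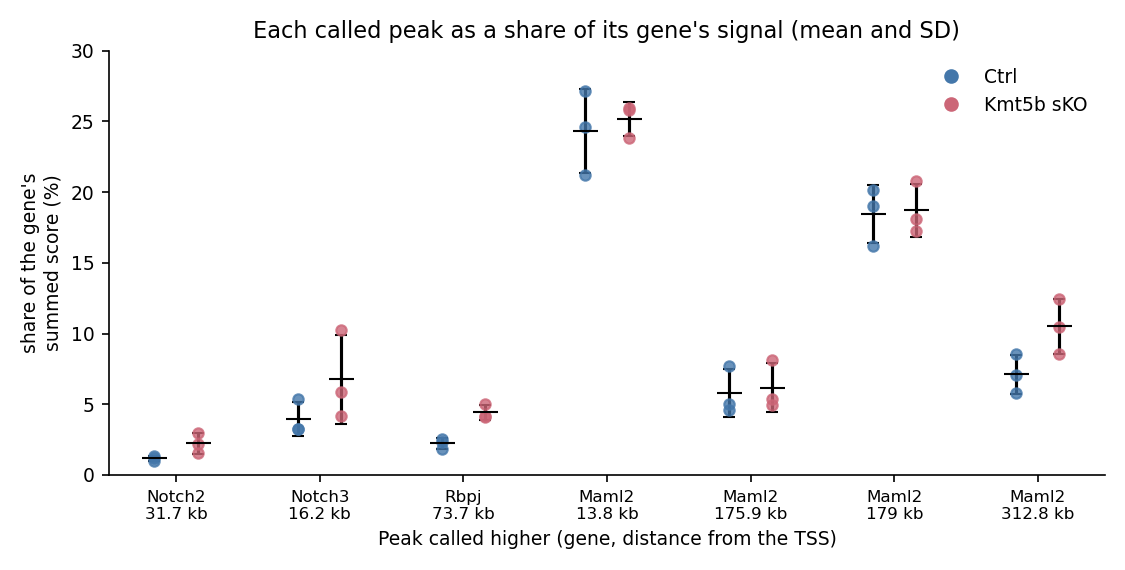
Share of its gene's summed score held by each of the 7 called peaks (y axis, percent, linear from 0), for each library of Ctrl (blue) and Kmt5b sKO (red), with mean and SD of 3 libraries. The Notch2 peak and the Rbpj peak have separate groups (Rbpj 1.82% to 2.54% in Ctrl, 4.11% to 5.0% in Kmt5b sKO), and the Maml2 peak at 312.8 kb nearly touches, while the remaining groups overlap.

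R-loops are often found at the start and end of genes, and the Notch peaks were placed accordingly. None of the 41 covered the TSS given in the table, and 3 covered the end of the gene, the last peaks of Notch1, Notch3 and Rbpj. Of the 41, 17 overlapped no exon, among them 6 of the 7 called peaks, the exception being the Notch3 peak. RefSeq promoter windows (250 bases before to 50 bases after a start, GRCm38) were at hand for 7 of the 10 genes. None of their 10 windows was overlapped by a union peak, against 4.6% of 32851 windows in the whole table. The nearest peaks were 42 bp from the Notch3 window and 65 bp and 205 bp from the pair of Rbpj windows. The Notch3 peak next to its start, chr17:32165600-32166799, scored 25, 55 and 24 in Ctrl and 39, 34 and 42 in Kmt5b sKO, without a call.

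Length went with the calls, in Notch peaks and in the table as a whole. Tested Notch peaks had a median length of 4.2 kb, against 2.4 kb for all tested peaks, and the called ones had a median of 2000 bp against 5000 bp for the others. Of the 14 Notch peaks over 5 kb none was called, where 4.81% of all peaks of that length were called higher. Of the 23 peaks of 1 to 5 kb 7 were called, against 37.5% of all peaks of that length. The median log2 fold change was 0.10 in the longer class (all peaks: 0.07) and 0.18 in the shorter one (all peaks: 0.42). The single tested peak under 1 kb, on Notch3, was not called, where 72.0% of all such peaks were. A score grows with peak length, so short peaks lie nearest the filter on low values and can pass it through Kmt5b sKO alone. The Notch3 peak had means of 29.3 in Ctrl and 43.7 in Kmt5b sKO. The part of the filter in the relation of length to calls was not tested. Of the 38 tested Notch peaks 15 lay above the median of their length class, the called Rbpj peak and the 5 Maml2 peaks of 2 kb or longer among them.

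**Figure D5:**
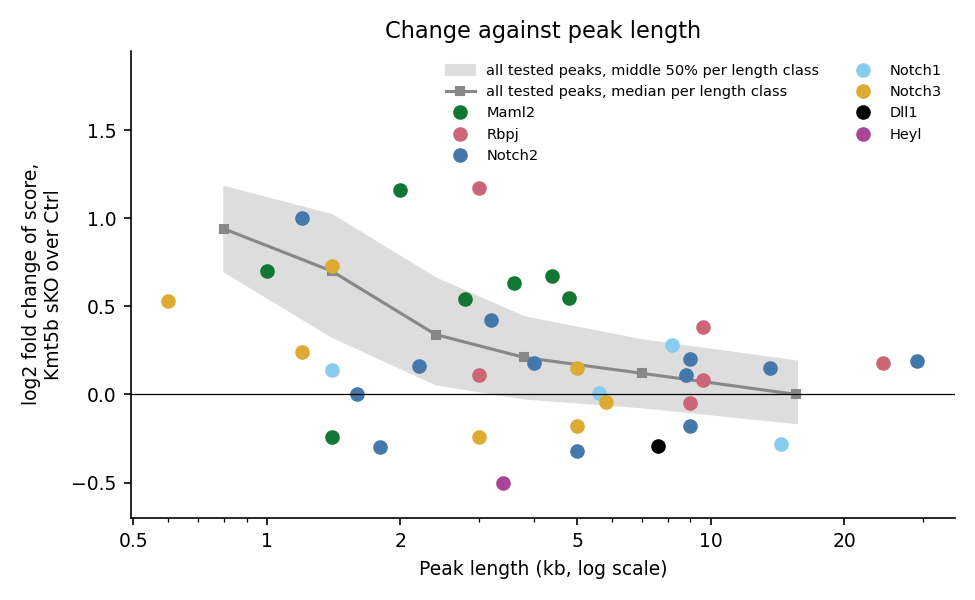
Log2 fold change of the score (Kmt5b sKO over Ctrl, y axis) against peak length in kb (x axis, log scale) for the 38 tested Notch peaks, coloured by gene. The grey line and band are the median and quartiles of all tested peaks in 6 length classes, falling from 0.94 in the shortest to 0.00 in the longest. The Rbpj peaks at 1.17 and 0.38 and 4 Maml2 points lie above the band. Points of Notch1, Notch2, Notch3 and Maml2 as well as Dll1 (−0.29) and Heyl (−0.50) lie below it.

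The other genes of the pathway were read from a list of 60, of which 25 carried 119 peaks. Of 112 tested peaks 28 were called higher (25%, against 32.9% of all tested peaks) and 4 lower (3.57%, against 0.883%), and the median log2 fold change was 0.25. Among the nuclear corepressors, which hold RBPJ targets silent without Notch input, Kdm5a, which encodes a histone H3 lysine 4 demethylase, had 2 of 3 peaks called higher. Its peaks summed to 161, 147 and 163 in Ctrl and 247, 236 and 279 in Kmt5b sKO, with no overlap and a log2 fold change of 0.69 (SE 0.16, adjusted p = 0.00017 by limma). Ncor1, a scaffold of histone deacetylase complexes, had 1 of 9 tested peaks higher, at chr11:62416200-62417599, with scores of 37, 42 and 41 in Ctrl and 97, 89 and 102 in Kmt5b sKO (log2 fold change 1.24, SE 0.24). The summed scores of Ncor1 overlapped between genotypes and were not called (log2 fold change 0.19, adjusted p = 0.21 by limma).

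The coactivators had 3 of 39 peaks higher (7.69%, against 32.9% of all tested peaks). These were on the acetyltransferase genes Ep300 (chr15:81613400-81615999, log2 fold change 1.04) and Crebbp (chr16:4150000-4150599, 1.06, and chr16:4190600-4191199, 0.91). None of the 14 tested peaks of Maml3, the paralog of Maml2, was called, and its sum of 3348, 3723 and 3298 in Ctrl and 3075, 3421 and 3148 in Kmt5b sKO overlapped (log2 fold change −0.10, limma adjusted p = 0.51). Maml1 had 3 peaks and no call. Ligand genes had 1 of 4 peaks higher, on Dner, which encodes a Delta/Notch-like transmembrane protein (chr1:84460400-84461199, 0.99). Adam10, which encodes a protease that cuts the receptor, had 1 of 7 peaks higher. The called peaks on Crebbp, Dner and Adam10 had Ctrl means under the level filter and passed it through Kmt5b sKO. In Ctrl the means were 20.0 and 25.3 on Crebbp, 22.7 on Dner and 25.3 on Adam10. In Kmt5b sKO they were 43.3 and 50.7, 49.3 and 46.3, in the same order. The Adam10 libraries overlapped between genotypes. The part of the filter in these calls was not tested.

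Receptor turnover was the role with calls in both directions, 5 higher and 4 lower of 16. The 4 lower peaks all lay on Dtx4, a Deltex E3 ubiquitin ligase gene, whose sum was 628, 1008 and 692 in Ctrl and 397, 575 and 409 in Kmt5b sKO (log2 fold change −0.74, SE 0.14, adjusted p = 1.3e-06 by limma). Its largest change was −1.04 at chr19:12466200-12467999, with 40, 80 and 47 in Ctrl and 27, 32 and 19 in Kmt5b sKO. The Kmt5b sKO mean of this peak, 26.0, was under the level filter, which it passed through Ctrl (mean 55.7). The part of the filter in this call was not tested. The libraries of the called peak at chr19:12469400-12470999 overlapped, with 40, 59 and 43 in Ctrl and 18, 48 and 26 in Kmt5b sKO. Over the listed pathway genes, lower calls fell from 4 to 1 without Ctrl replicate 2, the library with the highest Dtx4 sum (all tested peaks: 0.318%). None remained under the filter on score per kb (all tested peaks: 0.246%), or when a peak's variance was estimated from that peak only (0.291%). The count rose to 6 with the same total, 15 centred and 12 with quantile normalization (all tested peaks: 3.17%, 11.9% and 7.7%). Numb and Itch had 2 higher peaks each and Numbl 1. Among the genes for ligand uptake, receptor glycosylation and further targets, Mib1, Lfng and Hes6 carried peaks, and none of them was called.

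The counts changed with how the libraries were scaled against each other, and so did the median log2 fold change of all tested peaks. It moved by −0.20 when each library was given the same total, by −0.36 under quantile normalization and by −0.46 when each library was centred on its median. The Notch peaks then split into 3 higher and 1 lower with the same total, where 21.5% of all peaks were higher and 3.17% lower. Quantile normalization gave 2 higher and 4 lower (all peaks: 8.02% and 7.7%), and centring 2 higher and 8 lower (all peaks: 10.3% and 11.9%), against 7 and 0 under the spike-in scaling. The Rbpj peak at 73.7 kb and the Maml2 peak at 312.8 kb were called higher under all 4 scalings, and the Heyl peak was called lower under the 3 others. The Notch2 peak at 31.7 kb was not called after centring (log2 fold change 0.55) or quantile normalization (0.41). The Notch1 and Dll1 peaks named above had log2 fold changes of −0.74 and −0.75 after centring, and were called lower there and under no other scaling.

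As a description of likeness, the summed log2 scores of the 8 Notch genes with peaks were centred and averaged into a profile over the 6 libraries. It was lowest in Ctrl replicate 1, at −0.121, and highest in Ctrl replicate 2, at 0.12. Single Notch genes correlated with it from Pearson r = −0.238 (Hes1) to 0.89 (Notch2), over 6 libraries that share each gene's genotype and scaling. The genes most like it, of 5182 outside the pathway lists, were Arl6ip5 (0.997), Nsfl1c (0.994) and Nipbl (0.992), as the highest values of a long ranking.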

How the data were processed

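Reads were aligned by the authors to mm10 (GRCm38) with STAR 2.7.3a after Trimmomatic 0.39, freed of duplicates with Picard 2.21.7, and peaks were called against input (Epic2 in the methods, SICER 0.0.41 in the submitters' processing notes). FastQC 0.11.8 is listed too. The peaks of all samples were merged into union peaks after removal of blacklisted regions. The deposited score is the signal summed over a union peak, scaled by the authors to Drosophila (BDGP6) spike-in reads and rounded. It is not a count, so no count model was run, the reads behind a score are unknown, and a score grows with peak length. The table assigned each peak to the Ensembl gene of longest overlap. Its starts are multiples of the caller's window and are printed as given, and may thus begin 1 base ahead of the browser's first base.

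Autosomal peaks with a mean score over 30 were fitted with limma 3.58.1 (R 4.3.3, lmFit and eBayes with trend). The model held genotype alone and was fitted to log2(score + 1). Its two-sided p-values were adjusted by Benjamini-Hochberg across 25815 peaks. Fold changes on that scale understate low peaks. The prior degrees of freedom were infinite, so a peak's variance came from the trend. Calls needed an adjusted p under 0.1 and a fold over 1.5, the study's thresholds. Gene sums were fitted likewise. Tested on simulated data of the peak comparison, 170 of 200 changed peaks (85%) among 25815 were called, with 20 unchanged ones, and 0 with none changed. Exons came from GENCODE M21, promoter windows from RefSeq, and sequence from GRCm38. Other tools were pysam 0.24.0, scipy 1.17.1, pandas 2.3.3, matplotlib 3.10.9 and numpy 2.4.6 under Python 3.11.15.

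The members, gene lists, tests and thresholds were chosen with earlier results of these data known. Values were given for every called member peak, otherwise for a gene's highest-scoring peak, and in the wider pathway for the 10 called peaks of largest change whose libraries did not overlap. Some genes of the wider pathway are included in its counts but not reported here. Peaks discussed beyond these were chosen after their values were seen. Genes most alike were ranked among those with a mean summed score of 100 or more. The alternatives were other pseudocounts (5, 0.5), level filters (none, mean score over 100, score per kb over 30), scalings, thresholds and variance models, a replicate block, GENCODE overlap and each library left out in turn. The variance of each peak alone was added after seeing the data.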

Additional observations from a re-analysis of the deposited data

How the results depend on the processing

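The 7 Notch peaks called higher and 0 lower became 2 and 0 with a mean score over 100, 3 and 1 with the same total per library, 2 and 8 centred on the median, 2 and 4 with quantile normalization, 3 and 0 at a fold over 2, 11 and 1 with no fold minimum, and 4 and 0 with the variance of each peak alone. They were 4 to 9 higher and 0 to 1 lower when single libraries were left out. The lowest count, 4, was without Kmt5b sKO replicate 2, and the peak called lower without Ctrl replicate 1 was on Heyl. Over all tested peaks, 12.3% were higher and 0.849% lower with a mean score over 100. At a fold over 2 these shares were 14.2% and 0.0581%, and with no fold minimum 42.0% and 3.15%. With the variance of each peak alone they were 21.1% and 0.291%, and with the filter on score per kb 44.3% and 0.246%. Leaving out single libraries gave 27.6% to 34.9% and 0.318% to 1.26%. The shares for the scalings are given above. Summed by gene, 1 higher (Maml2) and 0 lower became 0 and 1 with the same total, 0 and 2 centred, 0 and 1 with quantile normalization, 0 higher at a fold over 2, and 1 lower with no fold minimum. With single libraries left out the gene counts were 0 to 1 higher and 0 to 1 lower. Of all genes tested, 17.3% were higher and 1.12% lower with the same total, 11.0% and 4.08% centred, and 5.27% and 5.03% with quantile normalization. At a fold over 2, 8.66% were higher, and with no fold minimum 3.27% were lower. Leaving out single libraries gave 21.8% to 29.1% of all genes higher and 0.123% to 0.48% lower. On the wider pathway, 28 higher and 4 lower became 9 and 2 with a mean score over 100, 11 and 6 with the same total, 5 and 15 centred, 11 and 12 with quantile normalization, 7 and 1 at a fold over 2, 38 and 7 with no fold minimum, 28 and 0 with the filter on score per kb, and 18 and 0 with the variance of each peak alone. Leaving out single libraries gave 21 to 26 higher and 1 to 4 lower, the 1 without Ctrl replicate 2.

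The stricter filter tested fewer peaks (24 of the Notch set), and the thresholds act by construction. For the other moves the cause was not tested. None of the 7 called peaks changed sign under any setting, but of the 38 tested Notch peaks 12 changed sign with the same total, 16 centred, 10 with quantile normalization and 1 to 5 when single libraries were left out. Among peaks named with their values, chr3:98090000-98093199 (Notch2) was at −0.04 and chr5:53591600-53601199 (Rbpj) at −0.08 centred, the longest Notch2 peak at −0.02 with the same total and −0.27 centred, the Notch3 peak next to its start at −0.22 centred and −0.35 with quantile normalization, and the first Maml2 peak at −0.47 to 0.05 when single libraries were left out, positive without Ctrl replicate 2. The Rbpj peak at 73.7 kb was called in all settings that tested it, and was not tested with a mean score over 100 or with the filter on score per kb. The Maml2 peak at 312.8 kb was called in all settings but the first of these, where it was not tested. Replicate numbers did not pair the libraries, since the correlations of same-numbered libraries were −0.009, 0.011 and −0.027. With the replicate number as a block the counts were 7 higher and 0 lower for Notch peaks, 1 and 0 for genes, and 28 and 3 for the wider pathway. Over all tested peaks 32.7% were then higher and 0.864% lower, and over all genes 25.5% and 0.274%. The table holds no reads per peak, so depth gives no interval for a single score, and peaks with scores near 30 are the least certain.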
